A study of Nicotiana benthamiana with 9 samples.

Results

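The plastid genes ndhB, rps7 and rps12 were followed in Nicotiana benthamiana, a tobacco relative whose leaves are widely used for transient expression. They were taken by gene name, and all 3 were found among the 106 rows of the count table, which holds 105 plastid rows and 1 row for the editor transgene. Wild-type leaves expressed the viral silencing suppressor P19 alone (3 libraries), or P19 with dPPRerpl2, a designed RNA editing factor built of RNA-binding pentatricopeptide repeats, from the vector pGWB2 (3 libraries) or pMDC32 (3 libraries). P19 is thus common to all 9 libraries, and the series text calls the libraries of a group biological replicates. The labels put replicate 1 of each group at 2 dpi (an abbreviation they do not spell out) and replicates 2 and 3 at 3 dpi, a day that the series text gives for all 9. The promoter in each vector and the plants behind each library were not given. The p-values below therefore set differences against the spread between these libraries, and whether that is a spread between plants is unknown.

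NDH, to which ndhB contributes a membrane subunit, is a thylakoid complex that feeds electrons back into the photosynthetic chain during cyclic flow around photosystem I. The ndhB gene carries an intron, and its transcript is among the most heavily edited in plastids of flowering plants, by conversion of C to U. The products of rps7 and rps12 are proteins of the small subunit of the plastid ribosome, RPS7 in its head, where it binds the rRNA, and RPS12 near the site at which codons are read. In tobacco, rps12 is split. Its first exon is transcribed with rpl20 and clpP, its other exons lie far away in the inverted repeat upstream of rps7 and ndhB, and both precursors are joined by trans-splicing. Read counts carry neither the editing state nor the splicing state of a transcript.

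Libraries held 32457135 to 44392760 counted reads. The psbA row, whose product is a photosystem II reaction centre protein, took 61.1% of them in P19 replicate 1 and at most 52.6% in any other library. That library stood apart and results are also given without it. The transgene row reached 1221 to 9675 CPM in the editor libraries and at most 11 counted reads in a P19 library. CPM give a row's count relative to the total of its library, here scaled with TMM factors. These ran from 0.742 (P19 replicate 1) to 1.09 (pMDC32 replicate 2). Apart from the transgene, the count table holds only plastid rows, so no nuclear marker could be checked. The leaf label was checked only by the abundance of psbA, a transcript of green plastids, which among plastid rows says little about the tissue. Every level is relative mainly to other plastid transcripts. In these bulk samples, fewer cells and less RNA per cell cannot be told apart.

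The rps7 and ndhB rows lay next to each other on the plus strand. The file gives rps7 at 142347 to 142814 (468 nt) and ndhB at 143100 to 145311 (2212 nt), 285 nt apart. The sources used here name no build for these positions. The listed length of ndhB equals its whole interval, so its row covers the intron as well. On the far side of ndhB, trnL began after 539 nt on the same strand. Both genes belong to the inverted repeat, which plastids carry in 2 copies. The table lists each of them once, and the treatment of reads that match both copies is not stated.

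The rps12 row was of another kind. It ran on the plus strand from 71935 to 142293, a span of 70359 nt that ended 53 nt before rps7. It began between rpl20 and clpP1, 818 nt after the former and 252 nt before the latter, both listed on the minus strand. Its listed length equals the whole interval from start to end and not the sum of exons, and its listed strand is opposite to that of rpl20 and clpP1. Inside it lay 37 other rows, 9 on its strand and 28 on the opposite strand, which together covered 43.7% of the span. No row was listed over the 25414 nt between rps19 and ndhF (36.1% of the span), where tobacco plastid genomes carry the other copy of the inverted repeat.

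**Figure D1:**
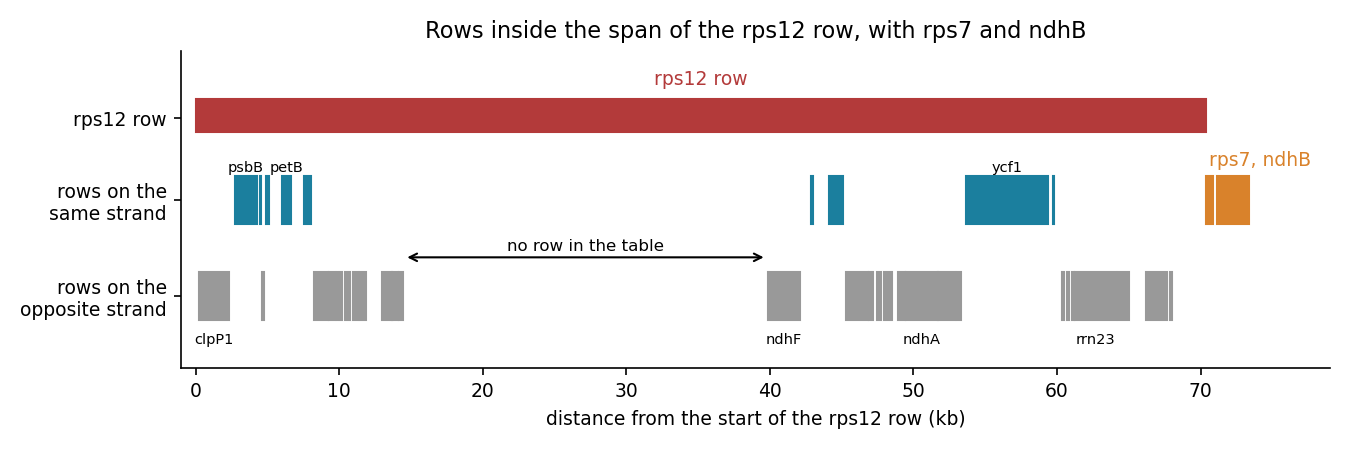
Map of the rps12 row (red), of the 37 rows inside it on the same strand (blue) and the opposite strand (grey), and of rps7 and ndhB (orange), by distance in kb from the start of the rps12 row. The rps12 row covers 70359 nt, 25414 nt of which hold no other row, and rps7 begins 53 nt after its end.

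The counts of the rps12 row cannot be assigned to rps12 transcripts. The row held 3062049 counts in P19 replicate 1, 4356896 in replicate 2 and 4111434 in replicate 3. With pGWB2 it held 3885949, 4208065 and 4942418 counts in replicates 1 to 3, and with pMDC32 4159029, 3948574 and 3433719. In all 9 libraries it exceeded the sum of the 9 rows inside it on its own strand, by 2.46 to 3.63 times, and the sum of all 37 rows inside it, by 1.52 to 1.98 times. The rows inside with the most counts on its strand were psbB, of the photosystem II core, petB and petD, both of the cytochrome b6f complex, with counts equal to 9.62%, 9.55% and 6.91% of the rps12 counts over all libraries. On the opposite strand they were trnA (4.61%), psaC of photosystem I (3.63%) and ndhD of the NDH complex (1.80%). Whether a read in psbB was counted for psbB, for rps12 or for both is not stated either. The rps12 values below are therefore values of a 70359-nt interval, and the share of mature or trans-spliced rps12 RNA in them is unknown.

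**Figure D2:**
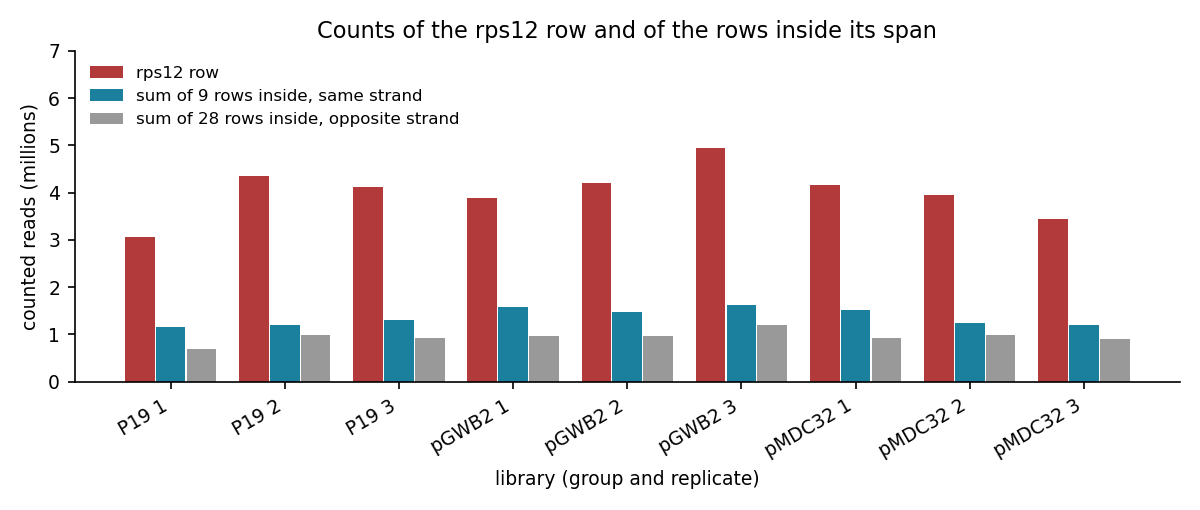
Counted reads for the rps12 row (red), the sum of the 9 rows inside it on the same strand (blue) and the sum of the 28 rows on the opposite strand (grey), in each library. In every library the rps12 bar is 2.46 to 3.63 times the blue bar.

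The ndhB transcript stood at 3038, 2335 and 2902 CPM in P19 replicates 1 to 3. It stood at 3611, 3303 and 2820 CPM with pGWB2, and at 3571, 3127 and 2674 CPM with pMDC32. The groups overlapped, since replicate 3 of either vector lay below P19 replicates 1 and 3. Group means (± SD, n = 3) were 3245 ± 399 CPM with pGWB2, 3124 ± 449 with pMDC32 and 2759 ± 373 in P19. As a plain share of counted reads, without TMM factors, ndhB did not overlap. It took 0.226% to 0.278% in P19 and 0.292% to 0.372% in the 6 editor libraries, a separation in this direction seen for 9 of the 105 plastid rows (8.57%) and in the other direction for 0.

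The rps7 transcript stood at 840, 1348 and 1189 CPM in P19 replicates 1 to 3, at 1641, 1536 and 1320 CPM with pGWB2, and at 1669, 1599 and 1282 CPM with pMDC32. P19 replicate 1 was the lowest of all 9 libraries, and P19 replicate 2 lay above the third replicates of both vectors, so the groups overlapped. The P19 mean was 1125 ± 260 CPM, against 1499 ± 164 with pGWB2 and 1517 ± 206 with pMDC32 (SD over 3 libraries). On this scale 3 of the 105 plastid rows (2.86%) had all 6 editor libraries above all P19 libraries, and neither rps7 nor ndhB was among them.

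The rps12 row stood at 117968, 114898 and 116010 CPM in P19 replicates 1 to 3, at 89345, 104162 and 103547 CPM with pGWB2, and at 101655, 106149 and 96831 CPM with pMDC32. All 6 editor libraries lay below all P19 libraries on this scale, as for 4 of the 105 plastid rows (3.81%). For pGWB2 alone 8 rows lay wholly below P19 (7.62%) and 6 wholly above (5.71%), and for pMDC32 alone 10 below (9.52%) and 3 above (2.86%). The P19 values had the smallest coefficient of variation of the 105 plastid rows (1.34%, where the median row had 24.6%). That closeness depended on the scaling. With library sizes and TMM factors taken from the other rows, an alternative added after seeing the data, the coefficient was 8.86%, and with no TMM factors it was 17.0%. As a share of counted reads the row took 8.76%, 12.3% and 11.1% in P19 and 9.20% to 11.6% with the editor, so the groups overlapped there.

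**Figure D3:**
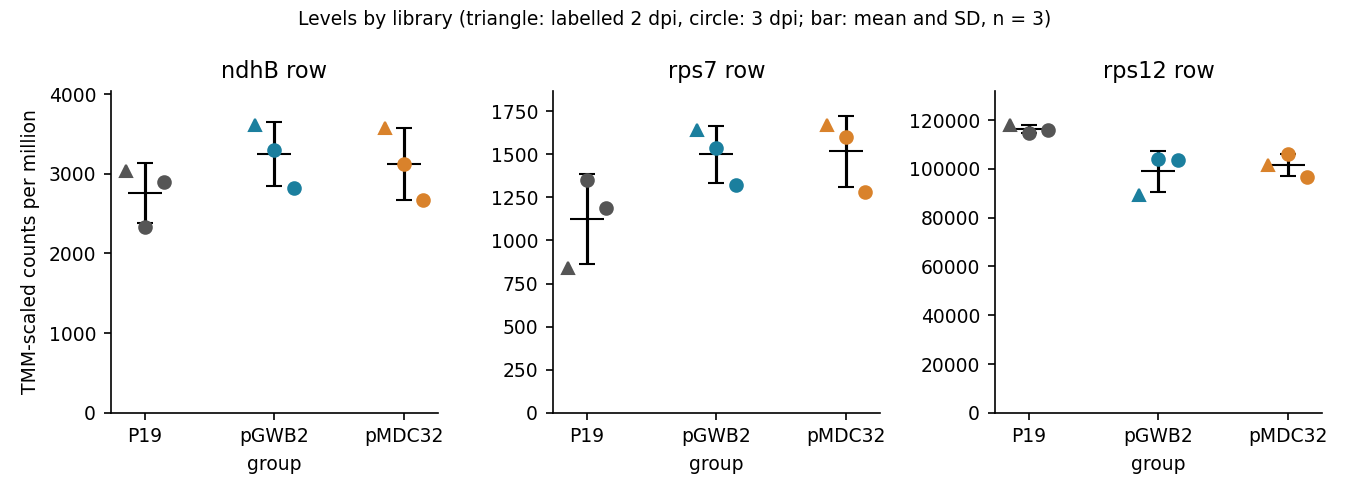
TMM-scaled CPM of the ndhB, rps7 and rps12 rows in the 9 libraries by group, with libraries labelled 2 dpi as triangles, those labelled 3 dpi as circles, and bars for mean and SD (n = 3). The groups overlap for ndhB and rps7, and for rps12 the P19 libraries (114898 to 117968 CPM) lie above the editor libraries (89345 to 106149 CPM).

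Per kilobase of row length, which for ndhB includes the intron, rps7 was the more abundant of the adjacent pair. It stood at 2405 ± 555 CPM per kb in P19 (SD, n = 3) and 3222 ± 356 in the 6 editor libraries (SD, n = 6), against 1247 ± 169 and 1440 ± 174 for ndhB. In the order of 12 rows for small ribosomal subunit proteins, rps7 was 3rd in P19, where rps16 (2471 ± 734 CPM per kb) and rps18 (2390 ± 60.4) did not differ from it beyond their spread, and 2nd with either vector, after rps14. Among 11 NDH rows, ndhB was 7th in P19, between ndhD (1348 ± 319 CPM per kb) and ndhI (1208 ± 158), again within their spread, and 5th with either vector. That order, too, uses the ndhB length with its intron. The most abundant NDH row in P19 was ndhE, at 6340 ± 1380 CPM per kb, and the least was ndhH, at 337 ± 95.7. The rps12 interval averaged 1653 ± 22.1 CPM per kb in P19, which is not the level of an rps12 exon.

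The first comparison asked whether the editor expressed from pGWB2 altered plastid transcripts relative to P19 alone, and none of the 3 rows passed the test. Log2 differences were 0.23 for ndhB (SE 0.17, 95% interval -0.14 to 0.61), 0.41 for rps7 (SE 0.20, -0.033 to 0.86) and -0.23 for rps12 (SE 0.089, -0.43 to -0.032). Their adjusted p-values were 0.639, 0.55 and 0.55 (edgeR quasi-likelihood F-test, Benjamini-Hochberg over all rows, as in every such test below). The rps12 row had the smallest unadjusted p of all plastid rows (0.0274 by edgeR), but over 21 alternatives its difference ran from -0.27 to -0.066. Leaving out P19 replicate 1 gave 0.34 for ndhB, 0.27 for rps7 and -0.20 for rps12, and leaving out any 1 library gave 0.12 to 0.34 for ndhB and 0.27 to 0.57 for rps7. Among all 105 plastid rows 0 were called (0%). Without adjustment 6 rows (5.71%) were under 0.05, and the calls by DESeq2 and limma-voom numbered 1 (rpl33) and 0.

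From pMDC32 the 3 rows had the same directions, and again none passed. Relative to P19, ndhB differed by 0.18 (SE 0.17, 95% interval -0.20 to 0.56), rps7 by 0.43 (SE 0.20, -0.016 to 0.88) and rps12 by -0.20 (SE 0.089, -0.40 to 0.0042), all on the log2 scale. Adjusted p-values were 0.635, 0.491 and 0.491 in edgeR. Again 0 of 105 plastid rows (0%) were called there, 6 (5.71%) being under 0.05 before adjustment, while rpl33 was the 1 call of DESeq2 and limma-voom made 0. Without P19 replicate 1 the differences became 0.33, 0.32 and -0.12, and over the libraries left out in turn they ran from 0.072 to 0.33 for ndhB and from 0.32 to 0.63 for rps7. Without TMM factors the rps12 difference was 0.0022. Both comparisons share the P19 libraries, so their like directions are not independent of each other.

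Taking both vectors as 1 group of 6 libraries narrowed the intervals. The rps7 transcript was 1.34 times its P19 level (log2 difference 0.42, SE 0.16, 95% interval 0.061 to 0.78), ndhB 1.15 times (0.21, SE 0.14, -0.094 to 0.51) and the rps12 row 0.862 times (-0.21, SE 0.070, -0.37 to -0.059). None passed over all rows, with adjusted p-values of 0.292, 0.403 and 0.264 in edgeR. Of 105 plastid rows 0 were called (0%), while 16 (15.2%) were under 0.05 before adjustment, among them rps12 (0.0116) and rps7 (0.0262, both by edgeR). DESeq2 called 3 rows (trnT, rpl33 and rbcL) and limma-voom 0. By order of p, rps12 was 3rd, rps7 7th and ndhB 38th of the 105. Leaving out P19 replicate 1 gave 0.30 for rps7, 0.33 for ndhB and -0.16 for rps12, and unscaled library sizes gave 0.56, 0.40 and -0.031. Unscaled sizes also moved the median plastid row up by 0.18.

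**Figure D4:**
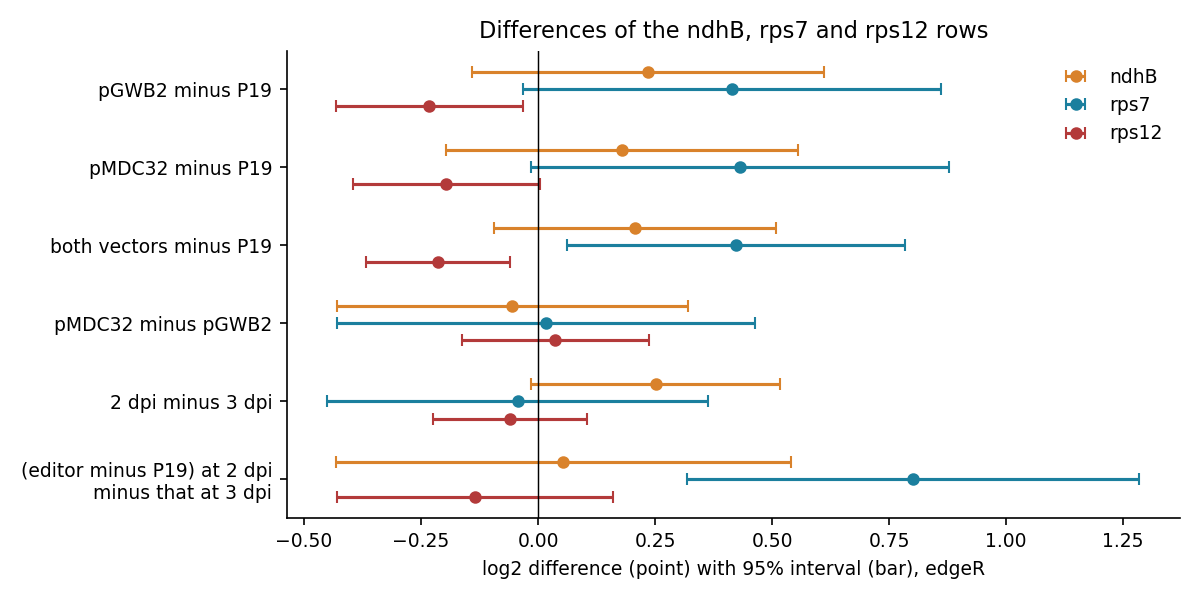
Log2 differences of the ndhB (orange), rps7 (blue) and rps12 (red) rows in 6 comparisons by edgeR, with 95% intervals as bars. Among the comparisons with P19, the unadjusted intervals that exclude 0 are those of rps12 with pGWB2 and of rps12 and rps7 with both vectors together, and the rps7 interval of the last comparison lies at 0.32 to 1.28.

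Sequencing lane was inferred from an L number in the column names, which do not call it a lane. It divided the groups in part. Lane 4 held P19 replicates 2 and 3 and all pGWB2 libraries. Within it, mean log2 CPM with pGWB2 minus P19 was 0.31 for ndhB, 0.24 for rps7 and -0.23 for rps12. Lane 8 held P19 replicate 1 and pMDC32 replicates 1 and 2, and the differences there were 0.14, 0.96 and -0.18. No test was made within a lane, where P19 had at most 2 libraries, and the part of the lane in the results was not tested.

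Between the vectors, no difference was found for any of the 3 rows. With pMDC32 minus pGWB2, the log2 differences were -0.055 for ndhB (95% interval -0.43 to 0.32), 0.017 for rps7 (-0.43 to 0.46) and 0.036 for rps12 (-0.16 to 0.24), each with an adjusted p of 0.998 in edgeR. As folds, these intervals run from 0.742 to 1.25 for ndhB and from 0.743 to 1.38 for rps7, so the vectors are not shown to act alike. Of the 105 plastid rows 0 were called (0%) and 1 (0.952%) was under 0.05 before adjustment, and DESeq2 and limma-voom called 0.

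The labelled day was compared with the group as covariate. At 2 dpi ndhB was 0.25 higher on the log2 scale than at 3 dpi (SE 0.12, 95% interval -0.016 to 0.52). In TMM-scaled CPM the 2 dpi library was the highest of its group in all 3 groups. As a share of counted reads, however, P19 replicate 1 was the lowest of its group (0.226%, against 0.251% and 0.278%). Over 19 alternatives the ndhB difference ran from 0.058 to 0.32. The rps7 difference was -0.043 (SE 0.18) and that of rps12 -0.060 (SE 0.072). Adjusted p-values were 0.296, 0.881 and 0.614 in edgeR, which called 0 of 105 plastid rows (0%) and placed 12 (11.4%) under 0.05 before adjustment, against 2 calls by DESeq2 (trnR and trnA) and 0 by limma-voom. Without P19 replicate 1 the rps7 difference turned to 0.23. Day and replicate number cannot be told apart.

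For rps7 the editor's difference from P19 was larger at the labelled 2 dpi than at 3 dpi, in a comparison with only 1 P19 library at 2 dpi. At 2 dpi rps7 stood at 1641 and 1669 CPM in the editor libraries and at 840 CPM in the P19 library, 1.97 times. At 3 dpi the means were 1434 CPM in 4 editor libraries and 1268 CPM in 2 P19 libraries, 1.13 times. The log2 difference between days was 0.80 (SE 0.22, 95% interval 0.32 to 1.28), with an edgeR adjusted p of 0.0133. The corresponding values were 0.054 for ndhB (SE 0.22, adjusted p = 0.859) and -0.14 for rps12 (SE 0.13, adjusted p = 0.431), by the same test. The test called 43 of 105 plastid rows (41%), 25 of them higher (23.8%), so rps7 is among many. At 2 dpi P19 has only replicate 1, the library that stood apart, so the day and that library cannot be told apart, and without it the term cannot be estimated. The test takes its spread from the other libraries and assumes that the lone one varies like them, while the median coefficient of variation of the plastid rows was 24.6% in P19 and 10.5% in the editor libraries.

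Ratios of counts within a library do not depend on how libraries are scaled. The rps7 count was 0.276, 0.577 and 0.41 times the ndhB count in P19 replicates 1 to 3. It was 0.455, 0.465 and 0.468 times with pGWB2, and 0.467, 0.511 and 0.48 times with pMDC32. The 6 editor libraries thus lay close together, between the P19 extremes. Their SD of the log2 ratio was 0.059 (n = 6) and that of P19 was 0.53 (n = 3). The mean log2 ratio was 0.23 higher with the editor, which did not pass (exact permutation test, two-sided, p = 0.357, adjusted p = 0.536 over 12 ratio tests), and it was -0.037 without P19 replicate 1. Over 65 pairs of neighbouring rows on the same strand less than 1000 nt apart, leaving out rps12, the median SD of the log2 count ratio was 0.099 in the editor libraries and 0.16 in P19. The pair of rps7 and ndhB was thus below the median pair in the former and above it in the latter, and so was, in P19, the pair of ndhB and trnL, at 0.58.

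The rps12 row was lower relative to each of its 2 downstream neighbours in every editor library. It held 38.8, 49.2 and 40.0 times the ndhB count in P19 replicates 1 to 3, against 24.7, 31.5 and 36.7 times with pGWB2 and 28.5, 33.9 and 36.2 times with pMDC32. Relative to rps7 it held 140.5, 85.3 and 97.6 times the count in P19, 54.4, 67.8 and 78.4 times with pGWB2, and 60.9, 66.4 and 75.5 times with pMDC32. Neither ratio overlapped between editor and P19 libraries.

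The log2 difference of the ratio to ndhB was -0.42 (exact permutation test, two-sided, 6 against 3 libraries, p = 0.0238), and that of the ratio to rps7 was -0.66 (p = 0.0119 by the same exact test, the smallest it allows). Both had an adjusted p of 0.143 over 12 ratio tests and did not pass. The ratio to rps7 differed by -0.45 without P19 replicate 1, by -0.81 without P19 replicate 2 and by -0.34 in the 3 dpi libraries alone. The ratio to ndhB differed by -0.49, -0.32 and -0.36 in the same order. For single vectors, 3 against 3 libraries cannot give a p below 0.1 in an exact permutation test. The ratios had that p with pGWB2 (-0.47 to ndhB and -0.67 to rps7) and with pMDC32 (-0.38 and -0.65). The same separation was seen for the ratio of rps12 to 19 of the 104 other plastid rows (18.3%), so ndhB and rps7 were not the only rows against which it lay lower. Conversely, the ratio of rps7 to another row lay wholly above P19 for 22 of 104 rows (21.2%), and that of ndhB for 12 (11.5%). Within lane 4 the differences for pGWB2 were -0.54 to ndhB and -0.46 to rps7, and within lane 8 those for pMDC32 were -0.32 and -1.14. The row spans many other genes and may take their reads. Its longest stretch without listed rows is where tobacco plastid genomes carry the other copy of the inverted repeat, to which ndhB and rps7 belong. Whether reads of ndhB and rps7 also entered the rps12 count was not tested. These ratios therefore do not measure rps12 transcripts against ndhB or rps7 transcripts.

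**Figure D5:**
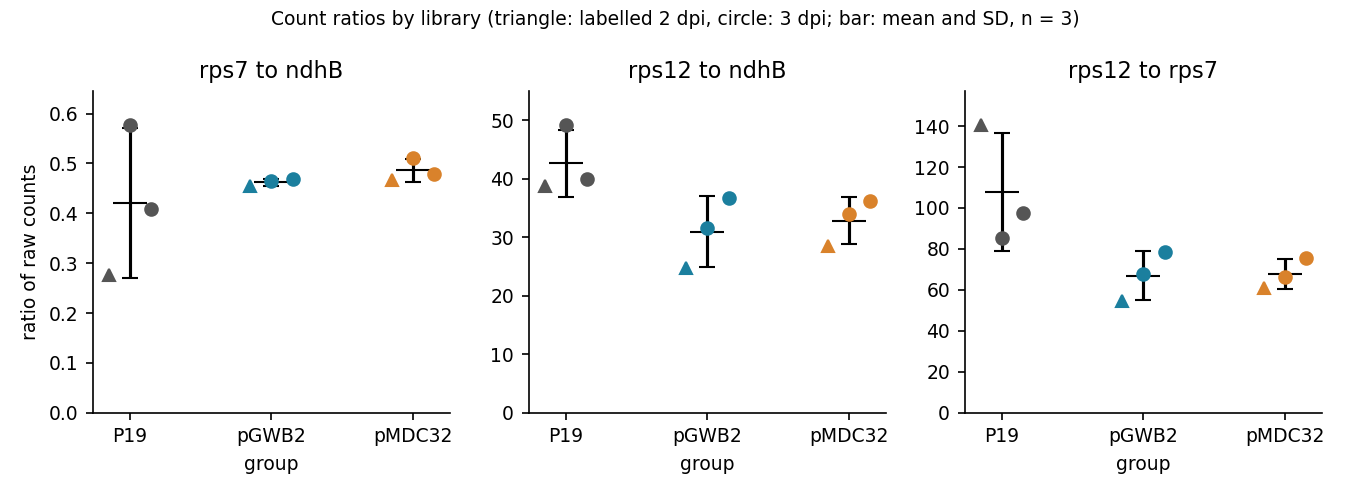
Ratios of raw counts of rps7 to ndhB, rps12 to ndhB and rps12 to rps7 in each library by group, with libraries labelled 2 dpi as triangles, those labelled 3 dpi as circles, and bars for mean and SD (n = 3). The rps7 to ndhB ratio ranges from 0.276 to 0.577 in P19 and from 0.455 to 0.511 with the editor, and both rps12 ratios are higher in the 3 P19 libraries than in the 6 editor libraries.

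Likeness between rows was described by the SD of the log2 ratio of their counts over the 9 libraries, where a small SD means that they moved together. The rows most like ndhB were atpE (0.099), trnM (0.10), atpI (0.12), atpF (0.12) and psbB (0.14), of which 3 encode subunits of the ATP synthase. For rps7 they were atpA of the ATP synthase (0.083), ndhH of the NDH complex (0.089), ycf4, a factor of photosystem I assembly (0.11), rps15 (0.15) and cemA, of the plastid envelope (0.15). The adjacent genes were less alike than these, with rps7 38th of 104 rows by likeness to ndhB (0.29, where the median row had 0.33). Without P19 replicate 1 rps7 was 7th (0.14), so the distance between the neighbours rested largely on that library. The rps12 row was most like trnT (0.13), trnC (0.13), atpH (0.14), trnH (0.15) and psbC (0.15), none of which lies inside its span, and rps7 was 83rd.

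Other NDH rows were not called with either vector or with both. With both vectors, 4 of 11 NDH rows lay above P19 and 7 below, with a median log2 difference of -0.12, where all 105 plastid rows had 44 above and a median of -0.076. The highest were ndhH (0.41, SE 0.20) and ndhB (0.21), and the lowest ndhK (-0.30, SE 0.31) and ndhC (-0.28, SE 0.24). Without P19 replicate 1, 7 of 11 lay above, with a median of 0.088, where all 105 plastid rows had 59 above and a median of 0.020. Without TMM factors 8 of 11 NDH rows lay above, a scaling that moved the median plastid row up by 0.18. In the test of dependence on the labelled day, edgeR called 5 of 11 NDH rows higher (ndhK, ndhJ, ndhC, ndhH and ndhI, 0.64 or more) and 2 lower (ndhD, -0.68, and ndhE, -0.54), but not ndhB. Over all plastid rows it called 23.8% higher and 17.1% lower, and it rests on the lone P19 library at 2 dpi.

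Rows for small ribosomal subunit proteins were not called either, and rps7 and rps12 stood near opposite ends of that list. With both vectors 8 of 12 lay above P19, with a median log2 difference of 0.15 and 6 of 12 above without P19 replicate 1. All 105 plastid rows had 44 above, and 59 without that library. The highest of the 12 were rps7 (0.42) and rps19 (0.38, SE 0.27), and the lowest rps16 (-0.44, SE 0.19) and rps12 (-0.21). At 2 dpi against 3 dpi 0 of 12 lay higher, and 6 of 12 did so without P19 replicate 1. Of all 105 plastid rows, 47 lay higher, and 57 without P19 replicate 1. The test of dependence on the labelled day called 5 of the 12, among them rps3 (1.30), rps7 (0.80) and rps2 (0.59), all higher. Over all plastid rows the test called 23.8% higher and 17.1% lower (41% in either direction), and it rests on the same lone P19 library. Of 18 rows of the inverted repeat, 5 lay above P19 with both vectors, rps7 highest, and 5 without P19 replicate 1, where ndhB was highest. Rows inside the rps12 span lay above P19 in 17 of 37 cases, with a median of -0.033, against -0.21 for the rps12 row itself.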

How the data were processed

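The authors deposited 1 table of raw counts, in reads per row. Tools listed in the submitters' processing notes are HISAT2 2.2.1, featureCounts 2.0.1, Trim Galore 0.6.10, FastQC 0.12.1 and DESeq2 1.42.0, in no stated order. Per the labels' protocols, rRNA was removed and libraries were directional. Not given in the sources used here are the build, the strand setting and how shared reads were counted. Columns were assigned by name.

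All 9 libraries entered edgeR 4.0.16 (R 4.3.3, quasi-likelihood test, TMM, filterByExpr, passed by all 106 rows), with two-sided p-values adjusted by Benjamini-Hochberg over all rows and a threshold of 0.05. Vectors were compared in 1 fit of 3 groups, both vectors with P19 in another, and days with the group as covariate. Alternatives used limma 3.58.1, DESeq2 1.42.0 and other settings. The edgeR tests were also run on simulated counts, with the same dispersion of a row in all libraries. The real median coefficient of variation was 24.6% in P19 and 10.5% in the editor libraries. Those runs therefore do not show how the tests behave under unequal spread. The members, lists and tests were chosen with earlier results of these data known. Named rows are the 3 members, the 5 rows most like each, their neighbours, the 2 highest and lowest of each list with every called row, and the 3 largest rows per strand inside rps12, though not every such row is reported here. Replicates of a group all differed by more than counting noise (chi-square/df 1359 to 21246). No sequences were used.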

Additional observations from a re-analysis of the deposited data

Results flagged for a closer look

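The editor's log2 difference from P19 in rps7 was 0.80 larger at 2 dpi than at 3 dpi, with an edgeR quasi-likelihood p of 0.0133 after Benjamini-Hochberg adjustment, in a test that called 43 of 105 plastid rows (41%). Both editor libraries labelled 2 dpi, but only 1 P19 library, stand behind the early value. The spread of that lone library is taken from the other libraries, and the day and that library cannot be told apart. Over the 18 alternatives the value ran from 0.53 to 1.18, with adjusted p-values of 0.0011 to 0.0473, and every one of them included P19 replicate 1. No member level or ratio in the 6 editor libraries had a highest or lowest library set apart from the rest (7 sets of values were examined).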

How the results depend on the processing

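Without TMM factors the pMDC32 minus P19 difference of rps12 turned to 0.0022 and its dependence on day to 0.24, and the mean rps12 levels were 107324 CPM in P19 and 107491 CPM with pMDC32. That scaling shifted the median plastid row by 0.18 for both vectors against P19. Calls of plastid rows moved from 0 with DESeq2 (1 for each vector against P19, 3 for both and 2 for the day), between vectors when P19 was left out of the fit (1, petL), and, for the day, without TMM factors (2) or in the editor libraries alone (7). Leaving out 1 library gave 0 calls in the vector comparisons, 0 to 2 for the day and 34 to 60 for the dependence on day.

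For the day, rps7 turned to 0.0037 with limma-voom, to 0.018 without the psbA row and to 0.18 in the editor libraries alone, and rps12 to 0.0073 without the psbA row. Leaving out 1 library gave -0.18 to 0.23 for rps7 and -0.091 to 0.066 for rps12. The dependence of ndhB on day turned to -0.21 without rRNA and tRNA rows, -0.14 without the rps12 row and -0.050 without the psbA row, and ran from -0.11 to 0.14 on leaving out 1 library. With TMM factors from the other rows, an alternative added after seeing the data, it was -0.14. The rps12 dependence on day passed without rRNA and tRNA rows (-0.41, adjusted p = 0.0161 by edgeR). Between vectors, leaving out 1 library gave -0.16 to 0.083 for ndhB and -0.067 to 0.14 for rps7.

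The ratio of rps7 to ndhB against P19 ran, on leaving out 1 library, from -0.037 to 0.49 with both vectors, -0.072 to 0.46 with pGWB2 and -0.0014 to 0.53 with pMDC32. In the 3 dpi libraries it was -0.017 with both and -0.060 with pGWB2. Between vectors, rps12 to ndhB ran from -0.057 to 0.23 and rps12 to rps7 from -0.12 to 0.15, the latter being -0.043 at 3 dpi. The causes of these turns were not tested.

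The replicate numbers are not said to pair the libraries. Deviations of same-numbered libraries correlated at -0.52 to 0.72, highest between pGWB2 and pMDC32 in replicate 1. With 3 libraries per group, these values cannot settle whether the numbers pair libraries. With the replicate number as a block, the differences of both vectors from P19 were 0.20 for ndhB, 0.42 for rps7 and -0.22 for rps12, and calls remained at 0 in the 4 comparisons it was run for. Directions of ndhB and rps7 against P19 were kept in all alternatives run. Without P19 replicate 1 the dependence on day could not be fitted.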
